A study of Mus musculus with 18 samples.

Results

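The 4 libraries described here hold the RNA of wild-type CD8 T cells of C57BL/6 mice, taken from spleen and lymph nodes after 4 weeks of proliferation in a lymphocyte-poor host. They are the libraries titled WT (36), WT (37), WT (740) and WT (741), called WT SP replicates 1 to 4, and were chosen by their labels: 4 of the 10 RNA libraries and of the 18 samples of the series. The cells carry CD8 and not CD4 and are wild type for G9a, the product of Ehmt2, an enzyme that methylates lysine 9 of histone H3. They are compared below with KO SP, G9a knockout cells of the same strain, tissue, time and CD4-CD8+ phenotype (n = 2). A further 4 libraries, of G9a knockout cells with both coreceptors (KO DP), enter the fit of that comparison to share its estimate of spread. Of these, replicates 3 and 4 carry the title numbers of KO SP replicates 1 and 2 (738 and 739). The labels do not say whether a shared number is a shared source, and the fit treats these libraries as separate. The labels name neither the host, nor the means by which G9a was removed, nor the antigen receptors of the cells, and do not say whether each library is a separate animal. Every p-value below thus measures the spread between the libraries sequenced, and that spread may be technical.

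T cells placed in a host with few lymphocytes divide in answer to the cytokines interleukin 7 and interleukin 15 and to self peptides on MHC molecules. Their progeny take on a memory phenotype without meeting a foreign antigen, with the interleukin 2 receptor beta chain, CD44, Ly6C and the chemokine receptor CXCR3 on the surface. A cell driven instead by strong or lasting antigen receptor signals makes effector molecules and inhibitory receptors such as PD-1, and lowers the homing receptor CCR7 of resting T cells.

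Levels are FPKM, fragments scaled to gene length and to sequencing depth, divided by a size factor for each library (0.980, 1.02, 1.02 and 0.993), and are called scaled FPKM. Where 4 values are given they stand in the order of replicates 1 to 4. The libraries summed to 441903 to 481782 FPKM and listed 14132 to 15841 gene symbols above 0. Depth relative to replicate 1, taken from the step size of low values, was 0.996, 1.30 and 0.666 in replicates 2 to 4. Replicates 3 and 4 were the closest pair, with 80 of 9964 genes more than 1 apart on the log2 scale. Replicates 2 and 3 were the most distant, with 1346 such genes. Pearson's r of log2 values over these 9964 genes, which are not independent, ran from 0.899 to 0.983. Replicate 2 stands apart in several gene groups below, so these are given by library, and with and without it where it decides a value. Markers of other cells also differed between the libraries. The 14 macrophage and monocyte markers summed to 86.1, 182, 18.4 and 37.7 scaled FPKM, and the 10 erythroid markers with a row in the table to 632, 1305, 16.3 and 22.5. The 12 B cell markers, among them Cd72 and Cd22, summed to 102, 72.2, 162 and 215. Of the others, the B cell factor Pax5 lay at 0.0469, 0.227, 0 and 0.139. In bulk RNA, a larger number of such cells and more RNA in each cannot be told apart, and the part of these markers in the results below was not tested except where a value is given.

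**Figure D1:**
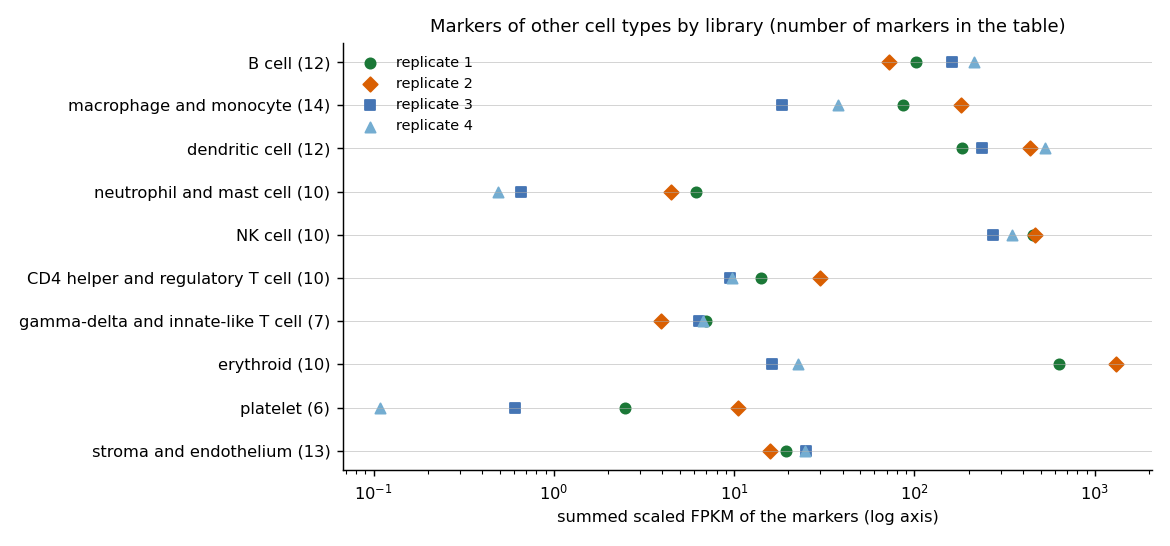
Summed scaled FPKM (log axis) of 10 lists of markers of other cell types in each of the 4 WT SP libraries, 1 symbol per library. Macrophage and erythroid markers were highest in replicate 2 and lowest in replicate 3, and platelet, neutrophil and stromal markers summed to at most 25.1 in every library. The stromal sum was nearly all Pecam1.

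The CD8 identity of the label held in each library. Cd8a, the alpha chain of the coreceptor, lay at 272, 244, 331 and 312 scaled FPKM, and Cd8b1, the beta chain, at 1309, 1159.6, 1478 and 1412. Both chains varied little, and Cd8b1, with a mean of 1339.6 ± 139 (SD, n = 4), had rank 19 among all symbols that are not short structural RNAs. Bcl2, the survival factor of resting T cells, lay at 141, 121, 204 and 224, higher in replicates 3 and 4 than in 1 and 2. Cd4 stayed at 0.505, 0.458, 0.228 and 0.145, below 1 in all 4 libraries, and Foxp3, the factor of regulatory T cells, was listed at 0 in all 4. An exact 0 in such a table can be a failed estimate, so a gene is said only to be listed at 0. Among the 10 listed markers of CD4 helper and regulatory T cells, 2 reached 1 in all 4 libraries and 4 in some. The 10 summed to 14.1, 30.02, 9.42 and 9.72 scaled FPKM, highest in replicate 2. Zbtb16, a factor of innate-like T cells, stayed below 0.1, as did Sparc and the collagen genes Col1a1, Col1a2 and Col3a1 of stromal cells. Markers of gamma-delta and innate-like T cells were not all so low. Of the 7 with a row, 1 reached 1 in all 4 libraries and 1 in some. Cd163l1 of this list lay at 5.93, 2.45, 4.67 and 3.97 with size factors from the 10 RNA libraries.

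A gene was called used where it reached 1 scaled FPKM in all 4 libraries, a convention and not a detection limit. Of 23234 gene symbols 9255 (39.8%) were used, 1413 reached 1 in some libraries, 7465 stayed below 1 in all 4, and 5101 were listed at 0 in all 4. Means of at least 100 were reached by 781 symbols and means of at least 1000 by 32, of which 24 were not short structural RNAs. The 10 most abundant genes, short structural RNAs left out, made up 8.48% of the summed mean level, the top 100 made up 24.7% and the top 1000 58.8%. None of the 1096 olfactory receptor genes was used.

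The most abundant genes were those of the lymphocyte cytoskeleton and surface, MHC class I, and cytotoxic and chemokine products. Tmsb4x, thymosin beta 4, which binds monomeric actin, led at 9629.9, 12846, 6148 and 8619.8. B2m, the light chain of MHC class I, followed at 3349, 3602, 3844 and 5005, with its heavy chains H2-D1 at 2213, 2374, 3365 and 3239 and H2-K1 at 2278, 2372, 2645 and 2532. Of these, H2-K1 was the steadiest and Tmsb4x spanned about a factor of 2.09 between replicates 3 and 2. Nkg7, a granule membrane protein of cytotoxic cells, lay at 2237, 4073, 2413 and 3018, and Ccl5, the chemokine RANTES, at 2295, 6365, 515 and 976. Ccl5 was the most uneven of the 30 most abundant genes, with replicate 2 far above the others and replicate 3 the lowest. Ly6c2, a Ly6C gene of memory phenotype CD8 cells, lay at 2105, 1337, 2839 and 3187, lowest in replicate 2. Among the 30 were also Cd52 and Ms4a4b, surface proteins of lymphocytes, Ctsw, a cathepsin of cytotoxic cells, Il2rg, the common gamma chain of the interleukin 2 family of receptors, and Lck, the kinase bound to CD8. The 81 ribosomal protein genes took 7.92%, 5.24%, 3.30% and 3.47% of the summed level, and the 29 MHC class I genes 1.76%, 2.03%, 2.65% and 2.38%. H2 genes and ribosomal protein genes have near-identical copies, between which the counting may have split reads.

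The antigen receptor machinery was in use throughout. Of 24 listed genes 23 (95.8%) were used, against 39.8% of all symbols, and the exception was Cd4. Median mean level over the list was 210 scaled FPKM, against 0.200 over all symbols. Cd3g, a signalling chain of the receptor, lay at 678, 863, 798 and 859, Cd3d at 419, 440.3, 421 and 478 and Lck at 804, 733, 1161 and 1042. Zap70, the kinase that docks on the receptor chains, lay at 90.9, 97.7, 79.6 and 78.5, and Lat, the scaffold it phosphorylates, at 307, 295, 479.8 and 537. The 4 libraries differed by less than a factor of 2 at each of these 5 genes. Other members were less even. Cd3e lay at 444, 888, 547 and 730 and Sh2d2a at 55.5, 132, 68.0 and 58.7, both highest in replicate 2. Cd6 lay at 169, 111, 241 and 184 and Ptpn6 at 289, 184, 393 and 328, both lowest there. Over the 23 members with a mean of at least 1, replicate 2 was highest at 8 and lowest at 9. Thy1, a glycoprotein of T cells, was the most uneven member used, at 51.6, 29.2, 3.26 and 5.53: replicates 1 and 2 lay above replicates 3 and 4.

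Of 47 cytokine receptor genes 24 were used, among them those of the homeostatic cytokines, of interferons and of interleukins 10, 12, 18, 21 and 27. Il7r, the interleukin 7 receptor alpha chain, lay at 206, 84.9, 219.8 and 226, lowest in replicate 2. Il2rb, which serves interleukins 2 and 15, lay at 391, 788, 407 and 394, and was highest in replicate 2. Il2rg, the chain both share, lay at 800.5, 666, 1214 and 1271. Il15ra, which presents interleukin 15, was lower, at 18.6, 22.8, 24.8 and 30.3. Il2ra, the alpha chain that activated cells add to bind interleukin 2 tightly, stayed at 0.624, 1.66, 0.517 and 0.816, passing 1 in replicate 2 alone of the 4. Il21r lay at 151, 127, 229 and 172, Il27ra at 135, 112, 234 and 199.6 and Il10rb at 118, 89.3, 169 and 177. All 3 were at their lowest in replicate 2. Ifngr1, the ligand-binding chain for interferon gamma, lay at 257, 224, 375 and 356, whereas Ifngr2, its partner chain, lay at 0.681, 1.04, 0.448 and 0.825, so that the level per length of the first chain was 215 to 838 times that of the other. Tgfbr2 lay at 83, 72.6, 65.2 and 60.9 and Tgfbr1, the signalling chain it recruits, at 5.51, 4.44, 5.01 and 6.27. Of receptors for growth factors of other lineages, Kit, Flt3, Csf3r and Epor stayed below 1 in all 4 libraries, whereas Csf1r, the receptor of macrophage growth factor, lay at 4.64, 9.78, 0.605 and 1.43. Il23r was listed at 0. Over the 27 members with a mean of at least 1, replicate 2 was highest at 8 and lowest at 16, against 30.6% and 32.7% of all genes with such a mean.

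Downstream of these receptors, 21 of 23 JAK-STAT and feedback genes were used. Jak1, the kinase of the gamma chain family and interferon receptors, lay at 350.3, 342, 373 and 367 and was among the 20 steadiest genes with a mean over 100. Stat4, which interleukin 12 activates, lay at 115, 126, 128 and 115 and Stat5b, which interleukins 7 and 15 activate, at 34.4, 40.3, 27.4 and 22.8. Of the feedback inhibitors, Socs3 lay at 80.4, 43.7, 89 and 85.6 and Socs1 at 58.6, 35.7, 61.5 and 63, both lowest in replicate 2, while Cish lay at 8.95, 18.3, 13.9 and 18.8 and Socs2 at 0.886, 1.33, 2.02 and 3.89. Pim2, a survival kinase induced by STAT5, lay at 155, 90.3, 158 and 155. The median over the list of the log2 difference between replicate 2 and the median of the other 3 was -0.08, near the -0.01 of all genes.

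Cytokine genes were mostly at or near 0. Of 47 cytokine and TNF family ligand genes 13 were used and 10 were listed at 0 in all 4 libraries: Il3, Il4, Il5, Il9, Il13, Il17a, Il17f, Il22, Il23a and Csf3. Il2, the growth factor of activated T cells, lay at 0.319, 0, 0.235 and 0. The most abundant was Ltb, lymphotoxin beta, which organises lymphoid tissue, at 618, 349, 568 and 472. It was followed by Il16 at 104, 85.5, 116 and 104 and Flt3l, the growth factor of dendritic cells, at 62, 62.2, 104 and 103. Ifng, interferon gamma, lay at 7.32, 119, 3.56 and 12.4: replicate 2 was at 119, and without it the mean was 7.74. Tnf showed no such pattern, at 5.99, 3.65, 6.92 and 6.24. Fasl, the ligand of the death receptor Fas, lay at 17.9, 92.6, 25.3 and 31 and Tnfsf4, the ligand of OX40, at 0.938, 24.8, 2.10 and 1.59, each highest in replicate 2.

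Of 33 chemokine genes 5 were used: Ccl3, Ccl4, Ccl5, Xcl1 and Cxcl10. Ccl3 lay at 3.77, 199.8, 1.83 and 3.23 and Ccl4 at 33.2, 328, 16.9 and 26.4, chemokines made by activated CD8 cells and also by macrophages. Xcl1, the chemokine that draws cross-presenting dendritic cells, lay at 22.3, 13.5, 21.4 and 24.2. Ccl3, Ccl4 and Ccl5 were each highest in replicate 2 and Xcl1 lowest there. Summed over the list, chemokine levels were 2364, 6923, 562 and 1041, nearly all of it Ccl5.

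Of 28 migration receptor genes 16 were used. Cxcr3, the receptor for interferon-induced chemokines, lay at 279, 197, 347 and 264, Cxcr6 at 212, 305, 297 and 391, Ccr7, which guides cells into lymph nodes, at 235, 93.8, 283 and 249, and S1pr1, by which they leave them, at 183, 160.3, 211 and 204. Ccr2, a receptor of monocytes and effector T cells, lay at 40.7, 41.6, 27.8 and 47.2. The receptors for skin and gut homing were low: Ccr4 and Ccr9 stayed below 1 in all 4 libraries, and Ccr10 at 3.87, 3.06, 2.26 and 1.61. Cx3cr1, the fractalkine receptor of effector cells and of monocytes, lay at 11.1, 41.8, 1.28 and 2.60. Among integrins and adhesion genes 18 of 28 were used. Itgb7 lay at 316, 270.0, 401 and 323 and Itgal, the LFA-1 alpha chain, at 197, 231, 162 and 142. Itga4, the VLA-4 alpha chain, lay at 5.51, 40.8, 1.29 and 1.35 and Itgam, a chain of the integrin Mac-1 of myeloid and some effector cells, at 1.24, 58.8, 0.411 and 0.297. Both were far higher in replicate 2. Itgae, the CD103 chain of tissue-resident cells, lay at 9.77, 2.05, 4.56 and 6.48, lowest in replicate 2. Itga1, the other residency integrin, passed 1 in replicate 1 alone of the 4, at 1.04, 0.498, 0.0780 and 0.121.

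**Figure D2:**
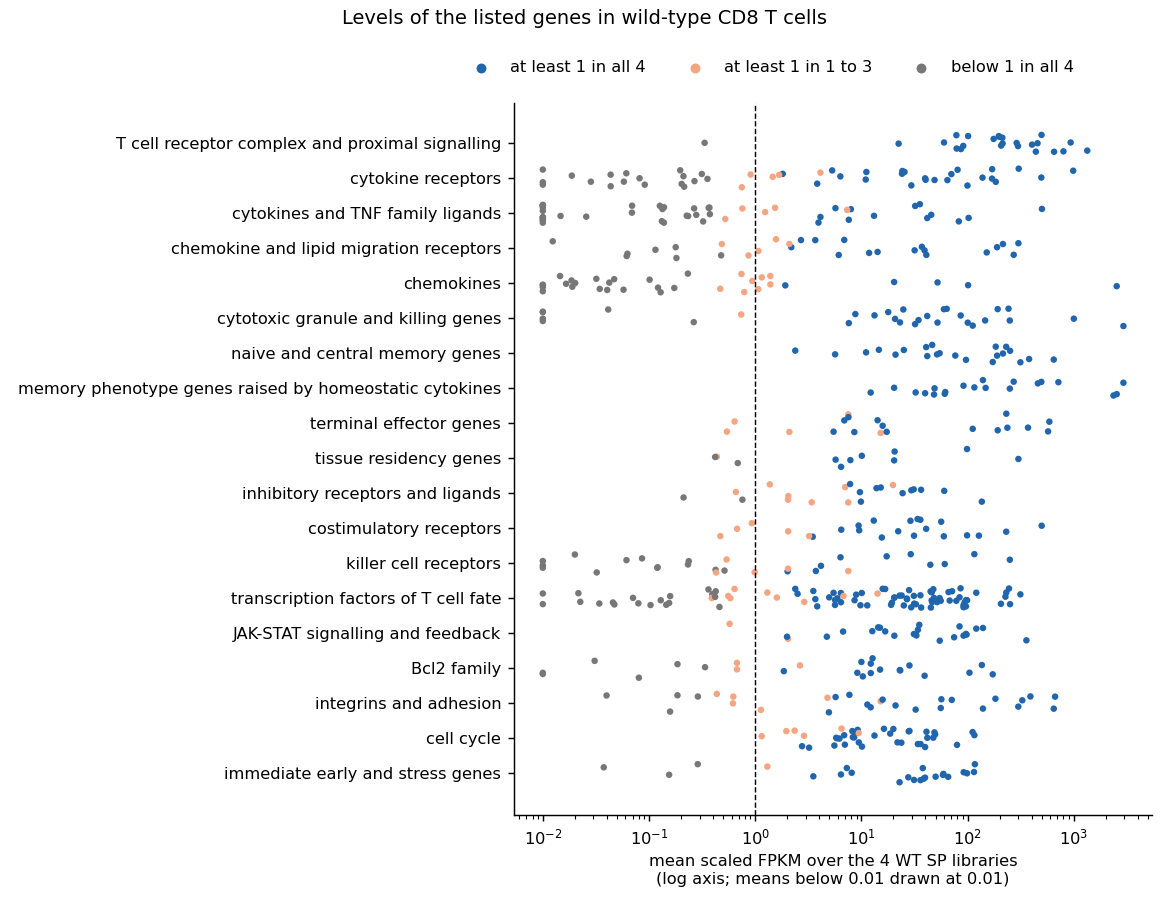
Mean scaled FPKM over the 4 WT SP libraries (log axis, means below 0.01 drawn at 0.01) of each gene of 19 lists, with the dashed line at 1. Nearly all antigen receptor, naive and memory, and JAK-STAT genes lie above the line (23 of 24, 22 of 22 and 21 of 23 used), while most chemokine and cytokine genes lie below it (5 of 33 and 13 of 47 used).

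Cytotoxic genes were used broadly, with a sharp line inside the granzyme family. Of 29 genes of granules and killing 22 were used, and of the 7 others 6 are granzymes, Gzmc to Gzmg and Gzmn. Of these 6, Gzmc passed 1 in replicate 4, and the other five stayed below 0.1 in every library. Gzmb, the granzyme that cleaves caspases, lay at 163, 362, 101 and 142 and Gzma at 162, 214, 26.4 and 45.5. Gzmk lay at 55.3, 183, 5.90 and 10.5 and Gzmm at 39.6, 32.3, 30.4 and 25.9. Gzmk spanned from 5.90 in replicate 3 to 183 in replicate 2, whereas Gzmm differed by less than a factor of 2. Prf1, the pore-forming perforin, lay at 111, 218, 137 and 119. Serpinb9, which protects the killer from its own granzyme B, lay at 24.1, 64.6, 22.1 and 27.4, and Ctsc, which activates granzymes, at 63.2, 123, 74.1 and 84.6. Over the 22 members with a mean of at least 1, replicate 2 was highest at 16 (72.7%) and lowest at 4 (18.2%). Of all genes with such a mean it was highest at 30.6% and lowest at 32.7%. The list's median log2 difference of replicate 2 was 0.74.

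Killer receptor genes were split by family. Of 28 genes 10 were used. The NKG2 chains and their partner were among them: Klrd1 (CD94) lay at 248, 263, 215 and 274, Klrc1 (NKG2A) at 90.8, 255, 40.1 and 77.5, and Klrk1 (NKG2D) at 47, 91, 35.5 and 70.3. Klrd1 was even across the libraries and Klrc1 was highest in replicate 2. Of the 11 Ly49 genes listed (the Klra family), Klra3 alone was used, and Klra1, Klra6 and Klra17 were listed at 0 in all 4. Reads of these near-identical genes can be split between copies. Ncr1 and Klrb1c, markers of natural killer cells, lay at 1.01, 0.399, 0.0275 and 0.278 and 0.976, 0.359, 0.143 and 0.579. Other markers of these cells were higher: of the 10 listed 5 were used, among them Gzma and Fcer1g, the latter at 9.33, 20.6, 2.21 and 1.54. The 10 summed to 453, 468, 271 and 349. Replicate 2 was highest at 4 of the 5 with a mean of at least 1, against 30.6% of all genes with such a mean. Klrg1, a receptor of terminally differentiated effectors, lay at 17.6, 10.9, 0.480 and 1.09, higher in replicates 1 and 2 than in 3 and 4.

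Genes of naive and central memory cells were all in use: 22 of 22. Tcf7, the factor TCF-1, lay at 418, 189, 349 and 301, and Satb1, a chromatin organiser, at 113, 53.6, 113 and 108. Together with Ccr7 and Il7r these genes were lowest in replicate 2 and overlapped among the other 3. Over the list, replicate 2 was lowest at 16 of 22 genes (72.7%) and highest at 3 (13.6%), namely Klf2, Cd28 and Myb. Of all genes with a mean of at least 1 it was lowest at 32.7% and highest at 30.6%. The median log2 difference of replicate 2 was -0.64. Even so, the lowest level of Tcf7 was still 189 scaled FPKM.

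Genes that homeostatic cytokines raise in memory phenotype cells were in use at the same time, 20 of 20, with a median mean level of 128. Cd44 lay at 32.3, 32.8, 27.3 and 37.3, Eomes, a T-box factor of memory CD8 cells, at 47.9, 76.7, 35 and 33.7, and Tbx21 (T-bet) at 88.8, 118, 88.1 and 71.5. Ly6a (Sca-1) lay at 689, 419, 804 and 954. Replicate 2 was highest at 10 of the 20 and lowest at 6, with a median log2 difference of 0.02. Of all genes with a mean of at least 1 it was highest at 30.6% and lowest at 32.7%. Members went both ways: Ccl5, Itga4, Klrc1 and Il2rb were highest in replicate 2, and Ly6a and Ly6c2 lowest.

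Of 19 terminal effector genes 14 were used, and of the 19 lists of T cell genes it had the largest median log2 difference of replicate 2, 1.91. Replicate 2 was highest at 12 of the 17 members with a mean of at least 1 (70.6%) and lowest at 1 (5.88%). Of all genes with such a mean it was highest at 30.6% and lowest at 32.7%. S100a4, a calcium-binding protein of motile cells, lay at 201, 1117, 69.2 and 96.1 and Lgals1, galectin 1, at 457, 1387, 181 and 266. Prdm1 (Blimp-1), a factor of terminal differentiation, lay at 2.69, 15.7, 1.53 and 1.93. Zeb2, another such factor, stayed at 0.988, 1.25, 0.183 and 0.141. Id2 lay at 299, 257, 122 and 248 and did not single out replicate 2. Several of these genes (Itgam, Itgax, Lgals1, S100a4) are also genes of macrophages, whose markers were highest in replicate 2 at 13 of 13 members with a mean of at least 1.

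**Figure D3:**
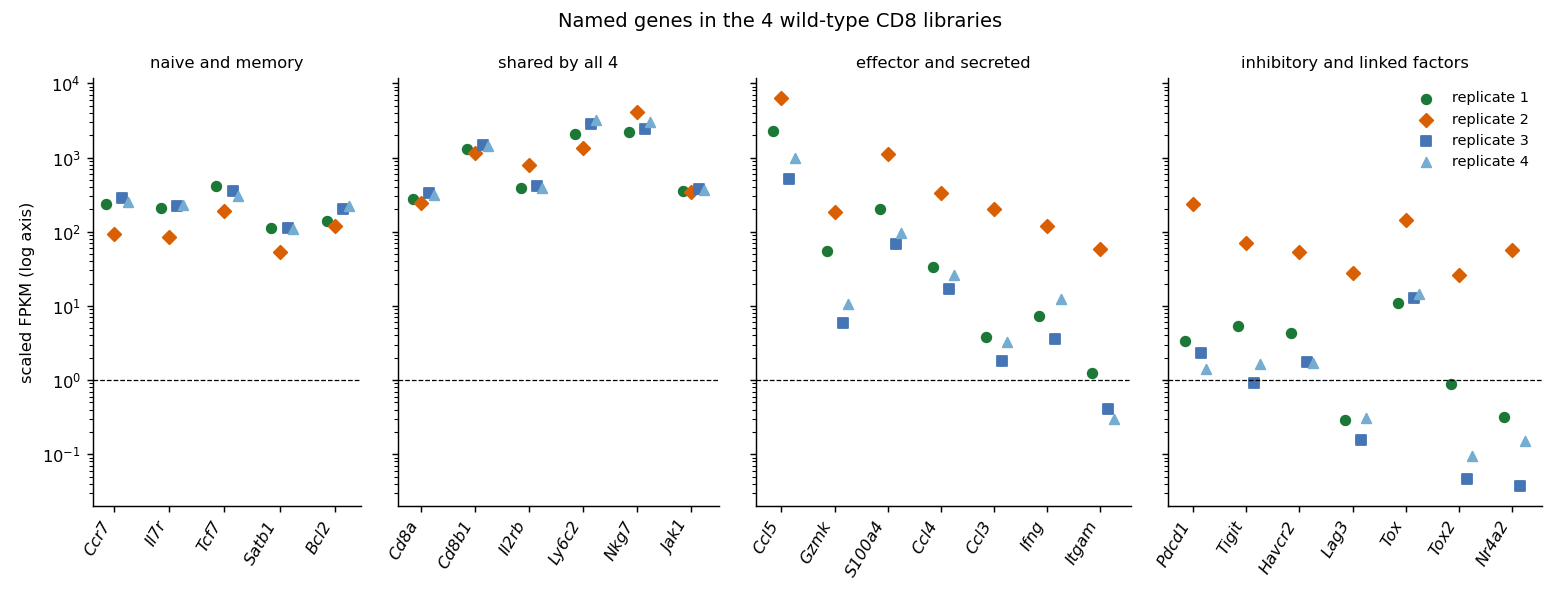
Scaled FPKM (log axis) of 25 genes in each WT SP library, 1 symbol per library, with the dashed line at 1. Pdcd1, Tox2, Nr4a2 and Lag3 lie 75.4 to 336 times higher in replicate 2 than the mean of the other 3 libraries, whereas Cd8a, Cd8b1 and Jak1 lie close together.

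Inhibitory receptors split into those present in each library and those far higher in replicate 2. Of 21 genes 11 were used. Pdcd1 (PD-1), which restrains antigen receptor signalling, lay at 3.38, 234, 2.29 and 1.42, and its level in replicate 2 was 99 times the mean of the other 3. Lag3 lay at 0.288, 27.4, 0.158 and 0.311, Tigit at 5.32, 71.4, 0.921 and 1.66, and Havcr2 (TIM-3) at 4.30, 53.1, 1.74 and 1.69. Ctla4 lay at 0.981, 11.6, 0.502 and 0.527, Entpd1 (CD39), which degrades extracellular ATP, at 1.94, 22.4, 3.38 and 3.58, and Cd244 at 0.689, 6.15, 0.449 and 0.867. Replicate 2 was the highest at each of these 7 genes. Over the 18 members with a mean of at least 1, it was highest at 9 and lowest at 6, against 30.6% and 32.7% of all genes with such a mean. The other pattern was shown by Cd160 at 35.9, 31.5, 35.3 and 43.3, Cd96 at 99.9, 139, 149 and 157 and Btla at 23.2, 12.9, 44.8 and 43.6, which were well above 1 in every library. Btla, Nt5e (CD73) and Lair1 were lowest in replicate 2. Pdcd1lg2, a ligand of PD-1, stayed below 1 in all 4 libraries, and Cd274, the other ligand, lay at 8.69, 6.91, 11.4 and 12.6.

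Some transcription factors were also highest in replicate 2. Over the 71 factors listed with a mean of at least 1, replicate 2 was highest at 34 (47.9%) and lowest at 20 (28.2%). Of all genes with such a mean it was highest at 30.6% and lowest at 32.7%. Tox, a factor of the exhausted state, lay at 10.9, 146, 12.7 and 14.5, Tox2 at 0.896, 26.1, 0.0471 and 0.0952, and Nr4a2, an orphan nuclear receptor induced by receptor signals, at 0.317, 56.4, 0.0369 and 0.149. All 3 were highest in replicate 2. Irf4 lay at 1.74, 8.93, 0.457 and 0.469 and Irf8 at 9.49, 45.5, 10.6 and 12, with the same library highest. The macrophage and monocyte markers summed above were highest in replicate 2 too, and their part in the levels of these receptors and factors was not tested. Costimulatory receptors were used at 18 of the 23 genes with a row. Tnfrsf9 (4-1BB) lay at 7.03, 116, 7.08 and 5.27, with replicate 2 far above, and Cd27 at 183, 233, 263 and 245, Cd28 at 33.6, 49.5, 37.4 and 42.6, Cd226 at 33.1, 15.3, 29.6 and 37.9 and Slamf6 at 25.6, 42.9, 84.9 and 85.7.

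Of 94 transcription factor genes with a row 66 (70.2%) were used. The highest were Tcf7, Klf2, which keeps T cells quiescent and drives S1pr1, at 230.0, 334, 218 and 223, Ets1 at 247, 319.6, 222 and 194, Id2, Hopx at 232, 175, 232 and 270.1, and Irf1, an interferon-induced factor, at 172, 176, 252 and 225. Runx3, which sets the CD8 lineage, lay at 34, 47.9, 22.6 and 21.1, and Zbtb7b (ThPOK), which sets the helper lineage, at 0.311, 0.838, 0.209 and 0.221. Runx3 was used and Zbtb7b stayed below 1 in all 4 libraries. Id3 lay at 49.8, 47.4, 65.7 and 43.5 and Bcl6, a transcriptional repressor, at 2.14, 0.933, 1.58 and 1.75. Myc lay at 102, 55.7, 112 and 106, lowest in replicate 2, and Batf at 65.7, 86.9, 72.8 and 60.4. Pax5, Cebpa and Gata2, factors of other lineages, stayed below 1 in all 4 libraries. In the Bcl2 family 15 of 24 genes were used. Mcl1 was even at 101, 103, 99.3 and 114, and the killer Bcl2l11 (Bim) lay at 12.6, 20.9, 9.86 and 5.68. The 3 used Bcl2a1 copies, whose near-identical sequences can split reads, were all highest in replicate 2, Bcl2a1b at 27.7, 87.8, 15.6 and 26.5.

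Variation was ranked by the SD of log2(scaled FPKM + 1) over the 4 libraries. Among 7703 genes with a mean of at least 5, short structural RNAs left out, the highest library was under 1.5 times the lowest for 3875 (50.3%), and over 4 times the lowest, or the lowest was listed at 0, for 299 (3.88%). Of the 200 most variable symbols of any kind 116 were short structural RNAs and 146 were listed at 0 in some library. With both left out, a choice made after their values were seen, replicate 2 was the library farthest from the median for 135 of the 200, high at 131 and low at 4. It was the farthest for 40.6% of all 7669 genes so ranked. Leaving out replicate 2 raised the number of used genes by 1 in the cytokine receptor, migration receptor, chemokine and transcription factor lists and left it as it was in the other 15 lists of T cell genes. The globin genes led (Hba-a1 at 369, 639, 4.30 and 11.6), then Pdcd1, Ccl3, Nr4a2 and Itgam. At the other end stood housekeeping and signalling genes: Akr1a1, an aldo-keto reductase, at 197, 203, 209.5 and 203, Psmb8, an immunoproteasome subunit, at 524, 529.6, 566 and 547, and Prkcq, the protein kinase C of the immune synapse, at 149, 139.6, 153 and 147.

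**Figure D4:**
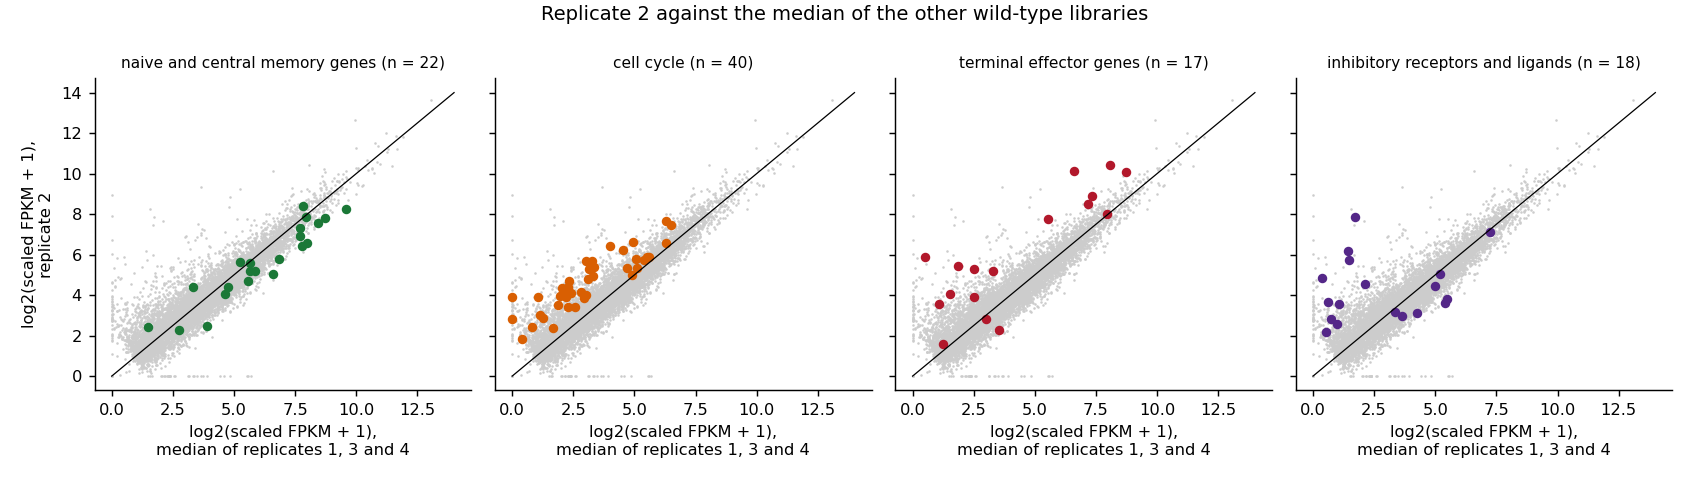
Level in replicate 2 against the median of the other WT SP libraries, each as log2(scaled FPKM + 1), over genes with a mean of at least 1 (grey) with 1 list coloured in each panel and the line of equal level. All 40 cell cycle genes lie above the line. Of the naive and central memory genes 16 of 22 were lowest in replicate 2, against 32.7% of all genes.

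Cell cycle genes shared their highest library: it was replicate 2 at 40 of 40 listed genes, against 30.6% of all genes with a mean of at least 1. The list's median log2 difference of replicate 2 was 1.64. Mki67 (Ki-67), a protein of dividing cells, lay at 10.5, 13.8, 1.07 and 0.723, Top2a, a topoisomerase of S and G2 phase, at 20.2, 41.5, 9.18 and 9.16, and Ccnb2, a mitotic cyclin, at 23.1, 50.5, 7.08 and 6.91. Replicate 1 was the second highest at each of the 3. Mcm3, a subunit of the replicative helicase, lay at 45.1, 57.4, 52.4 and 43.1 and Pcna, the polymerase clamp, at 82.2, 92.7, 65.5 and 77.7. The 67 Hist genes took 0.271%, 0.475%, 0.0830% and 0.0753% of the summed level. The 23 immediate early and stress genes did not share 1 highest library: replicate 2 was highest at 8 of the 20 with a mean of at least 1. Hspa1b, an inducible chaperone, was highest in replicate 4, at 35.6, 30.7, 16.4 and 152.

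Since cell cycle genes shared their highest library, their promoters were searched for the letters of 3 elements known from such promoters. These were TTTGAA, the cell cycle homology region bound by the MuvB complexes, CCAAT, the box bound by NF-Y, and GGCGGGAA, an E2F site. Windows of 300 bases, from 250 before to 50 after the RefSeq start (GRCm38.p6), were read on both strands. A row was found for 33 of the 40 genes, with 35 windows. TTTGAA occurred in 16 of the 35 windows (45.7%), against 15.3% of 19014 windows of all genes of the table that have one. CCAAT occurred in 29 (82.9%), against 38.2%, and both in 16 (45.7%), against 6.20%. GGCGGGAA occurred in 2 (5.71%), against 2.91%. Among the 121 genes outside the list, of the 200 most variable, that were farthest and high in replicate 2, 106 windows were found, of which 18.9% held TTTGAA and 36.8% CCAAT, near the shares of all windows. A match is of letters and shows no binding. The windows of 3 of the most variable list genes that hold both are printed 5′ to 3′ on the strand of the gene. Capitals mark the 3 elements and their reverse complements. Mki67 is at chr7:135716330-135716629, Ccnb2 at chr9:70421505-70421804, both on the minus strand, and Ube2c, a ubiquitin-conjugating enzyme of mitosis at 29, 50.8, 6.81 and 8.58 scaled FPKM, at chr2:164769679-164769978 on the plus strand.
Mki67: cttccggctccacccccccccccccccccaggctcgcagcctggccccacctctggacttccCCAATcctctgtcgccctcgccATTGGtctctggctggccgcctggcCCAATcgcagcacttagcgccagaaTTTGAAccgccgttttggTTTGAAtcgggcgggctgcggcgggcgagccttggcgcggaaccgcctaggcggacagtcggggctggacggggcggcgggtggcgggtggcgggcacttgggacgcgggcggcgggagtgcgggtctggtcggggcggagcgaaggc
Ccnb2: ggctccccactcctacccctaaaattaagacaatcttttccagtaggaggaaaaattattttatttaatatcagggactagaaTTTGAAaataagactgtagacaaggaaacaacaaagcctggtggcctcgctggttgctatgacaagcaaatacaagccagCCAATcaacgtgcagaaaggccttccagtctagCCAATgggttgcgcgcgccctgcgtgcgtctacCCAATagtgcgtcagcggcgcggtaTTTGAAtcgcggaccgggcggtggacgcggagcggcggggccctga
Ube2c: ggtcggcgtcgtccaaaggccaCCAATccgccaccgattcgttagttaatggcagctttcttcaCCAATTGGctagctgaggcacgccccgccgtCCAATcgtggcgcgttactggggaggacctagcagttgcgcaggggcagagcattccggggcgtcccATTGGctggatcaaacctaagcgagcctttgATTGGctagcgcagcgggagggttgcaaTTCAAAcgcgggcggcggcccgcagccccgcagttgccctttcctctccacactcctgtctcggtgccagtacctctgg

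The library titles fall into separate number ranges, 36 and 37 against 740 and 741, and levels were compared between them within the wild-type group (n = 2 against 2). The labels do not say what the numbers stand for. With limma on log2(scaled FPKM + 1), 41 of 10123 genes (0.405%) passed an adjusted p of 0.05, 27 (0.267%) higher in titles 36 and 37 and 14 (0.138%) lower, and 2560 had an unadjusted p under 0.05. Globin genes were the clearest group: Hba-a1 was higher by 5.89 ± 0.50 (SE, log2; adjusted p = 0.0413, limma) and Hbb-b2 by 5.50 ± 0.45 (SE, log2; adjusted p = 0.0391, limma). Of the 40 cell cycle genes 2 passed, Mki67 (higher by 2.78 ± 0.23 (SE, log2; adjusted p = 0.0401, limma)) and Kif20a, a mitotic kinesin that was listed at 0 in replicates 3 and 4 and lay at 9.65 and 14 in 1 and 2. The list's median was 1.33, against -0.02 over all genes tested, and 28 of 40 had an unadjusted p under 0.05. Hist1h2ae, a histone H2A gene, lay at 38.1, 40.7, 3.78 and 4.38 and was higher by 2.99 ± 0.15 (SE, log2; adjusted p = 0.014, limma). Isg20, an interferon-induced exonuclease, lay at 12.6, 12.8, 37.9 and 37.3, lower by 1.49 ± 0.13 (SE, log2; adjusted p = 0.0401, limma). H2-Q7, an MHC class I gene with near-identical neighbours, was listed at 0 in replicates 3 and 4 and lay at 220.5 and 485 in 1 and 2. Many of the 41 called symbols, Kif20a and H2-Q7 among them, were likewise listed at 0 in both libraries of 1 range. Rad9 lay at 0, 0, 49.4 and 45.5 and Rfc4 at 22.4, 24.3, 0 and 0. An exact 0 can be a failed estimate, so such calls may rest on it. Of the macrophage and monocyte list 0 of 13 tested passed with limma, with 10 at an unadjusted p under 0.05 and a median of 1.80. The number of calls depended on individual libraries: it was 0 without replicate 4, 18 without replicate 3, 50 without replicate 2 and 428 without replicate 1, where a lone library is assumed to vary like the other range.

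Wild-type and knockout cells of the CD4-CD8+ phenotype were compared to see what sets WT SP apart from the other group of that phenotype. All values of this comparison use size factors from the 10 RNA libraries. Ehmt2 lay at 16.9, 38, 23.7 and 19.5 scaled FPKM in WT SP and at 10.3 and 11.7 in KO SP, higher in every WT SP library. The log2 difference, WT SP minus KO SP, of 1.03 ± 0.27 (SE; adjusted p = 0.308, limma) did not pass, and the deleted stretch of the gene is not given in the labels. Cd8a differed by -0.05 ± 0.19 (SE; adjusted p = 0.913, limma) and Cd8b1 by 0.04 ± 0.18 (SE; adjusted p = 0.942, limma). With limma, 19 of 10383 genes (0.183%) were called, 5 (0.0482%) higher in WT SP and 14 (0.135%) lower, and 1407 had an unadjusted p under 0.05. KO SP libraries carry titles of the range 738 to 741 alone, whereas WT SP and KO DP libraries fall in both ranges. With a block for the title range in the fit, 24 genes were called, and 16 of these were among the 19.

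Of the 5 genes higher in WT SP 4 lie on the Y chromosome. Ddx3y lay at 20.1, 19.3, 23.1 and 25.3 in WT SP and 0.0509 and 0.166 in KO SP, and Eif2s3y, Kdm5d and Uty likewise lay below 0.4 in both KO SP libraries. Xist, transcribed from the inactive X chromosome of female cells, lay at 0.0316, 0.0273, 0.0118 and 0.0209 in WT SP and 1.53 and 2.54 in KO SP. Sex-linked expression thus differed between the groups as genotype did, and the 2 cannot be told apart. Rbm12, an RNA-binding protein, was listed at 0 in both KO SP libraries and lay at 13, 15.9, 11.7 and 8.59 in WT SP. Among the genes lower in WT SP, Cd163l1, which gamma-delta T cells carry as a scavenger receptor, lay at 5.93, 2.45, 4.67 and 3.97 in WT SP and 80.2 and 88.7 in KO SP, a log2 difference of -4.07 ± 0.34 (SE; adjusted p = 0.000772, limma). Gtsf1, a germline small RNA factor, lay at 0.166, 0.801, 0 and 0 and 19 and 9.30, a difference of -3.58 ± 0.35 (SE; adjusted p = 0.00225, limma). Gpm6b, a membrane proteolipid, lay at 0.585, 0.222, 0.371 and 0.312 and 6.49 and 7.0, a difference of -2.50 ± 0.18 (SE; adjusted p = 0.000262, limma). These 3 passed without each WT SP or KO DP library in turn. With WT SP and KO SP alone in the fit, Cd163l1 and Gpm6b passed and Gtsf1 did not (adjusted p = 0.0519, limma). Ccr6, a chemokine receptor of helper and innate-like T cells, lay at 0.952, 0.732, 0.153 and 1.30 and 4.91 and 6.77, a difference of -1.97 ± 0.29 (SE; adjusted p = 0.0334, limma). Its call held without 3 of the 10 libraries in turn, with adjusted p from 0.0348 to 0.291. Cd163l1 and Ccr6 were the only members of the 29 lists to be called. Of 24 antigen receptor genes, 23 cytotoxic genes, 22 naive and central memory genes, 40 cell cycle genes and 78 transcription factors tested, limma called 0, with 3, 1, 2, 0 and 10 at an unadjusted p under 0.05. Their medians were -0.10, -0.14, 0.06, -0.67 and 0.06, against -0.03 over all genes. The count of calls was 8 with WT SP and KO SP alone in the fit, 73 with WT SP replicates 3 and 4 alone, 11, 12 and 12 without KO DP replicates 2, 3 and 4, 11 without KO SP replicate 1, and 30 without WT SP replicate 1.

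H3K9me3, a histone mark of silent chromatin, was mapped by the study not in the expanded cells but in wild-type CD8 T cells cultured with CD3 and CD28 stimulation, with 85960 and 23304 peaks in the 2 wild-type libraries. The share of genes with a peak within 5 kb of their start in both lists was set beside their RNA level in WT SP. It was 4.02% (exact binomial 95% interval 3.46% to 4.63%) of 4532 genes listed at 0, 5.20% of 7463 genes below 1, and 7.82% (5.96% to 10.04%) of genes used at a mean over 100, against 5.76% of all 22500. The intervals cover counting error alone, and genes are not independent. A peak in either list gave the other order, 21.0% and 19.4%, as did the list of 85960 peaks alone, 19.2% and 16.3%. The list of 23304 peaks alone gave 5.76% and 10.9%. Listed genes below 1 in all 4 libraries with a peak in both lists included Cd4 and Il23r. Used genes with such a peak included Gzma, Zap70 and Cd2, so a peak within 5 kb did not mark out the genes below 1.

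**Figure D5:**
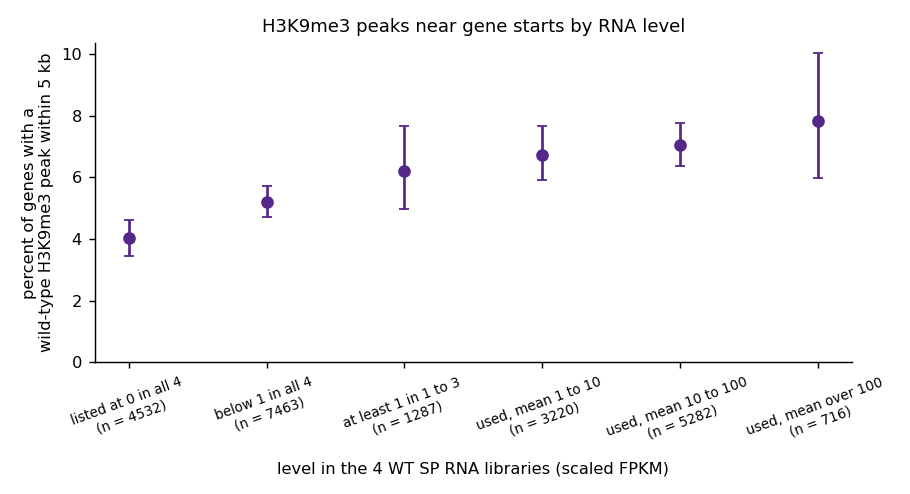
Percent of genes with a wild-type H3K9me3 peak within 5 kb of their start in both lists, by RNA level in the 4 WT SP libraries, with exact binomial 95% intervals. The share runs from 4.02% of genes listed at 0 to 7.82% of genes used at a mean over 100.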

How the data were processed

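For the 10 RNA libraries, SMART-Seq v4 amplified up to 5 ng of RNA and Nextera tagmentation followed, per the labels' protocols. The chemistry does not mark the strand, so overlapping and antisense genes cannot be told apart. The RNA table that the authors deposited holds FPKM. The submitters' processing notes name TopHat, Cufflinks and mm9. The versions, gene models and filters were not given in the sources used here. FPKM holds no read counts, so no counting intervals were computed for levels. The H3K9me3 peak lists carry a score for each peak that the authors deposited. For these the same notes name Bowtie and HOMER. The score served in 1 alternative, which kept peaks above its median. The 2 wild-type lists were used here.

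The 23700 lines of the RNA table hold 23234 symbols, and lines that repeat a symbol were summed. Size factors are median ratios to the geometric mean over the 4 WT SP libraries, or over all 10 for the comparison with KO SP. Differences were tested on log2(scaled FPKM + 1) with limma 3.58.1 (R 4.3.3) and a mean-variance trend, on genes with a mean of at least 1, with p adjusted by Benjamini-Hochberg and called at 0.05. The pseudocount of 1 shrinks the differences of low genes. The comparison with KO SP used all 10 libraries in 3 groups. Scripts were tested on simulated data. All else used Python 3.11.15, numpy 2.4.6 and pandas 2.3.3. Relative depth was read from ratios of low values, of which 35.5% to 41.6% lay within 0.5% of a fraction of small integers, against 3.63% to 3.95% at an offset.

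The 29 gene lists hold 597 genes, of which 588 matched by symbol and 2 by a RefSeq synonym. The members and lists were chosen with earlier results of these data known. Genes eligible for naming were Cd8a, Cd8b1, Bcl2, Cd4 and Ehmt2, every list member, the 30 most abundant and 40 most variable genes, and the 10 largest rises and falls of each comparison. Akr1a1, Psmb8, Prkcq and Xist were named after their values were seen, as were genes taken from the variability ranking without short structural RNAs. Short structural RNAs were 734 symbols named as small nucleolar, micro and similar RNAs. Alternatives covered the scaling, thresholds, pseudocount, filters, trend, blocks, each library left out and the peak distance.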

Additional observations from a re-analysis of the deposited data

Results flagged for a closer look

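In a group of 4, a library was singled out where its gap to the nearest other library exceeded Dixon's 95% critical share of the range on the log2(scaled FPKM + 1) scale. Chance singles out about 1 in 20 genes, and 360 of 7703 genes with a mean of at least 5 (4.67%) passed this limit. Replicate 2 was the library for 118 of the 360 on the high side and 93 on the low side, and each other library for at most 30 on a side. Of 147 genes named here with a mean of at least 1, 19 passed, each through replicate 2. Some of the 147 were named because they vary most among these same libraries. Their count can therefore not be set against the rate by chance.

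Replicate 2 was high at 12 of them. These were inhibitory receptors and linked factors, Pdcd1 at 234 scaled FPKM (others at most 3.38), Lag3 at 27.4, Ctla4 at 11.6, Cd244 at 6.15, Tox at 146 (others at most 14.5) and Nr4a2 at 56.4. Irf8 at 45.5, the chemokine Ccl3 at 199.8, the costimulator Tnfrsf9 at 116, the integrin chain Itgam at 58.8, the receptor chain Il2rb at 788 and the quiescence factor Klf2 at 334 were high as well.

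Replicate 2 was low at the other 7: the homing receptor Ccr7 at 93.8 (others at least 235), the survival receptor Il7r at 84.9 (others at least 206), Satb1 at 53.6, Myc at 55.7, the kinase Pim2 at 90.3, and the cytokine feedback genes Socs1 at 35.7 and Socs3 at 43.7. What sets replicate 2 apart was not tested.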

How the results depend on the processing

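The number of used genes ran from 8432 to 9835 over 9 alternatives, from 9327 to 9375 with a library left out, and the number below 1 from 12623 to 12897 with a library left out. Of the 30 most abundant genes 28 or 29 were shared with a library left out. Replicate 2 was the farthest library for 77 of the 200 most variable symbols when short structural RNAs were kept, for 132 without them and for 135 also without symbols listed at 0, the last 2 being choices made after the data were seen. The title range comparison (41 calls) gave 13 with a pseudocount of 5, 103 with no filter and 0 to 428 with a library left out. The comparison of WT SP against KO SP (19 calls) gave 9 with no scaling, 8 with WT SP and KO SP alone, 73 within titles 738 to 741 and 11 to 30 with a library left out. Replicate numbers are shared by WT SP and KO SP, but deviations of same-numbered libraries correlated at -0.03 and -0.11, so the numbers were not taken to pair them. Title numbers shared by KO SP and KO DP were not blocked on, and the fit of WT SP and KO SP alone does not hold them. With the replicate block 1415 genes were called, 943 higher in WT SP and 472 lower. The share of genes with a peak, for those listed at 0 and those over 100, was 0.816% and 0.838% within 1 kb, 13.6% and 21.9% within 20 kb, and 21.0% and 19.4% with either list. Peaks above the median score gave 2.14% for genes listed at 0 and 6.01% for those over 100. The list of wild-type peak replicate 1 alone gave 19.2% and 16.3%, and that of replicate 2 alone 5.76% and 10.9%. The cause of these changes was not tested. The direction of no called gene turned in the alternatives run. Of the 405 refits of single called genes between title ranges 181 lost the call, as did 103 of 375 for WT SP against KO SP. With 2 against 2 libraries, and read depth known in relative terms alone, levels near 1 scaled FPKM and differences between ranges are the least certain values.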

Other observations

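Further members of the listed groups, not given by library above, were also uneven. Dapl1, a gene of naive and memory CD8 cells whose product is little studied, lay at 524, 222, 355 and 417 scaled FPKM, and Igfbp4, which binds insulin-like growth factors, at 78.4, 31.9, 100.1 and 96, both lowest in replicate 2. Cd69, which holds cells in tissue by removing S1PR1 from the surface, lay at 77.8, 54, 130.2 and 133, also lowest in replicate 2, although it is an activation marker. Of the 11 tissue residency genes with a row 8 were used. Litaf lay at 6.81, 29.3, 1.86 and 2.41, highest in replicate 2, and Cdh1, E-cadherin, at 4.75, 3.51, 11.8 and 11.4, higher in replicates 3 and 4 than in 1 and 2.

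MHC class II genes did not follow replicate 2. Cd74, the invariant chain, lay at 94.7, 213, 135 and 321 and H2-Ab1 at 34.3, 86, 53 and 108, both highest in replicate 4, as was the B cell marker Cd79a at 2.01, 7.07, 7.87 and 18. Macrophage markers ordered the libraries otherwise: C1qb, a complement chain, lay at 12.7, 25.1, 1.94 and 4.17 and Lyz2, lysozyme, at 19.5, 38.1, 6.48 and 14. The heat shock genes Hspa1a, at 25.6, 23.4, 10.5 and 84.6, and Hspa1b were highest in replicate 4, while Hsph1, another chaperone, at 50.3, 47.3, 25.3 and 28.6, and Dnajb1, at 48, 44.9, 25.4 and 35.7, were highest in replicate 1.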
